A study of Mus musculus with 10 samples.

Results

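MHC class I presentation was examined in microglia, the resident macrophages of the brain, through 10 genes: the heavy chain genes H2-K1, H2-D1, H2-T23, H2-Q7 and H2-M3, the light chain gene B2m, the peptide transport and loading genes Tap1, Tap2 and Tapbp, and the regulator Nlrc5. They were taken by gene symbol, not by their values, from the 53697 genes of the tables, and all 10 were among the 13916 genes with enough reads to be tested. The microglia were sorted from brains of female mice lacking Bhlhe40 and Bhlhe41 in the whole body (Bhlhe40/41-DKO, 5 libraries) and of female wild-type mice (WT, 5 libraries), and neither genotype was treated. Bhlhe40 and Bhlhe41 encode related transcriptional repressors that bind E-boxes. The WT mice were C57BL/6J or Rosa26Stop-YFP animals by the paper's methods, while its results call them littermates. All mice were on the C57BL/6 background, and the paper calls them relatively young and gives more than 1 age. Neither the strain nor the age of the mouse behind each library is given, so neither could be compared with the genotype. The labels call the libraries biological replicates without stating that each came from 1 mouse, so the tests rest on the spread among libraries, which may be technical in part.

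Class I molecules display peptides from inside the cell to CD8 T cells and natural killer cells. A heavy chain pairs with beta-2-microglobulin, a transporter of Tap1 and Tap2 pumps peptides into the endoplasmic reticulum, and tapasin, encoded by Tapbp, bridges the transporter and the empty class I molecule. Nlrc5 is the transactivator of class I genes, and interferons raise the expression of the whole pathway. Microglia express class I genes at rest and more strongly in ageing and inflammation.

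In DKO microglia 4 of the 10 genes rose, all of them heavy chain genes (H2-K1, H2-D1, H2-T23 and H2-Q7), and none fell, by edgeR's quasi-likelihood test with Benjamini-Hochberg adjusted p under 0.05 over all genes. Among all genes tested, 6.19% passed this test, 4.34% as higher and 1.85% as lower in DKO microglia. The light chain, the transporter, tapasin, Nlrc5 and the heavy chain H2-M3 did not pass it. Without WT 1 and WT 5, which stood apart in several values below, 3 of the 10 genes rose and H2-T23 no longer passed. The median log2 fold change (DKO over WT) of the 10 genes was 0.42, against -0.0095 over all genes tested. All 10 estimates were above 0 with TMM scaling, which equalises libraries on the bulk of their genes, but Tap1 and Tap2 were below 0 with upper-quartile factors, Tap2 with library size alone, and H2-T23, Tap1, Tap2 and Tapbp on the scale of the deposited TPM. With TPM recomputed without Gm23935, an abundant gene described below, Tap2 was below 0 and the other 9 above it. In bulk RNA, more cells of a type and more RNA per cell cannot be told apart.

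The promoters of the 4 heavy chain genes that rose, and of B2m, are printed because class I genes are known to share a block of regulatory elements near their start. The sequences are from RefSeq (GRCm38.p6), run from 250 bases before to 50 bases after the start, and are given 5′ to 3′ on the gene's strand. Capitals mark matches, on either strand, to CACGTG (the E-box bound by BHLHE40 and BHLHE41), GAAANNGAA (an interferon response element), ATTGG (the CCAAT or Y box), TGACGC or TGACGT (the core of a CRE, as in the X2 box) and GGGANTTTC (an NF-kB element).
H2-K1 (chr17:34000298-34000597, minus strand): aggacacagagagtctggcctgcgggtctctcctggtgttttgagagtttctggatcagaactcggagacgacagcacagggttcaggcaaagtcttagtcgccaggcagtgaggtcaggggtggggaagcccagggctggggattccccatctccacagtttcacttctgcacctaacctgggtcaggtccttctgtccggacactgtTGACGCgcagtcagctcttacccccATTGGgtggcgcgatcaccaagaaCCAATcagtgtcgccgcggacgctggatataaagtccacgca
H2-D1 (chr17:35262844-35263143, plus strand): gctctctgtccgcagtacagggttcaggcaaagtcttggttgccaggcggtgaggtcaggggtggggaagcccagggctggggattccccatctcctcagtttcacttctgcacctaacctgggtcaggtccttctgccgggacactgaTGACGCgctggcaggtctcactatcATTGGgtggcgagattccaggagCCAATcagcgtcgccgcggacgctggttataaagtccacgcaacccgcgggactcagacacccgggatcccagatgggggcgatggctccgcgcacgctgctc
H2-Q7 (chr17:35438905-35439204, plus strand): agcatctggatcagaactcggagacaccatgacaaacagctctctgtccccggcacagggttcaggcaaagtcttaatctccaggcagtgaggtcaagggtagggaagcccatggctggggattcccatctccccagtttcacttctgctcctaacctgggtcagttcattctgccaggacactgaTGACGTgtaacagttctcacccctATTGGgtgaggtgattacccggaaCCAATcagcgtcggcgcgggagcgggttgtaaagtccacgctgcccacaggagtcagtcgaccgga
H2-T23 (chr17:36032652-36032951, minus strand): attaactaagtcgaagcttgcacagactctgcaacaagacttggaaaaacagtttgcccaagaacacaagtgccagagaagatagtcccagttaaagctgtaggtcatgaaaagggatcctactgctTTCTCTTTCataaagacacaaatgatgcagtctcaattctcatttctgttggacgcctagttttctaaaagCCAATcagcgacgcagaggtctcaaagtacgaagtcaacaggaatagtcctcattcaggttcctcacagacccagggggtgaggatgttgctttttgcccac
B2m (chr2:122147437-122147736, plus strand): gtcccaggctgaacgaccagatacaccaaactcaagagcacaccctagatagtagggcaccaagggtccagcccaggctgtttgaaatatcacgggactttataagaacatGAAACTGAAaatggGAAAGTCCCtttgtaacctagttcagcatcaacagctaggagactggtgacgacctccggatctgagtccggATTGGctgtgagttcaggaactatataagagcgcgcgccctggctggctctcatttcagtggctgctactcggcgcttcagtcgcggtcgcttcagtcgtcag

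The E-box letters CACGTG matched in none of the 8 promoters that could be matched to the 10 genes, and 7.15% of the 32851 promoters in the table held them. H2-K1, H2-D1 and H2-Q7 each held a CRE core followed by ATTGG on the forward and then on the reverse strand, an arrangement of letters also found in H2-M3 in another order. H2-Q6, a further heavy chain gene described below that was higher in DKO, held ATTGG on both strands but no match to a CRE core. Of all promoters, 14.0% held a CRE core, 37.4% held ATTGG, 5.80% held ATTGG on both strands and 0.868% held that together with a CRE core. H2-T23 held an interferon response element from base -123 to -115 and ATTGG from -52 to -48 before the start. B2m held an interferon response element from -139 to -131 and an NF-kB element from -125 to -117. The interferon response element letters occurred in 8.56% of all promoters and those of the NF-kB element in 1.11%. Only these exact letters were searched, so a promoter without a match may still hold another form of an interferon response, NF-kB or other element. The printed promoters of H2-K1, H2-D1 and H2-Q7 each held tttcacttc and ggggattccc, which were not among the letters searched. Whether either is such a form was not tested, so these promoters cannot be said to lack an interferon response or NF-kB element. The marked matches describe letters in a window and were not measured as binding.

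H2-K1 encodes the classical heavy chain H2-K and lies at chr17:33996017-34000347 on the minus strand (GRCm38, GENCODE M21). The read counts of H2-K1, scaled to library size by TMM (CPM), in DKO libraries 1 to 5 were 938, 746, 881, 982 and 967, against 530.2, 513, 503, 520.0 and 406 in WT libraries 1 to 5. The lowest DKO library stood above the highest WT library. H2-K1 averaged 903 ± 95.8 CPM in DKO and 494 ± 50.6 CPM in WT microglia (SD, n = 5 each), a log2 fold change of 0.87 (SE 0.10, 95% interval 0.64 to 1.09, edgeR adjusted p = 5.24e-04). No 150-base stretch of its annotated transcripts, the length of 1 read, occurred in those of another gene.

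H2-D1, the other classical heavy chain of this strain, lies at chr17:35262730-35267499 on the plus strand. Its CPM in DKO libraries 1 to 5 were 2524, 2015, 1414, 2523 and 2156, against 731, 1102, 1152, 1061 and 457 in WT libraries 1 to 5. The groups did not overlap, with DKO 3 lowest among the DKO libraries and WT 5 and WT 1 lowest among the WT libraries. The means were 2126 ± 457 CPM in DKO and 901 ± 298 CPM in WT microglia (SD, n = 5 each), a log2 fold change of 1.24 (SE 0.25, 95% interval 0.70 to 1.78, edgeR adjusted p = 0.0145). These 3 libraries also had the highest share of mitochondrial reads, 1.58% in DKO 3, 1.54% in WT 5 and 1.75% in WT 1, against 0.986 to 1.16% in the other libraries. The part of this in the H2-D1 values was not tested, and without WT 1 and WT 5 its log2 fold change was 0.94 (edgeR adjusted p = 0.0144). The call was lost in libraries 1 to 3 alone (0.99, adjusted p = 0.130) and in libraries 4 and 5 alone (1.63, adjusted p = 0.172).

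H2-Q7 encodes a Qa-2 heavy chain, a non-classical molecule that can be anchored to the membrane by glycolipid, at chr17:35439155-35443773 on the plus strand. It had 26.6, 17.0, 28.0, 19.1 and 20.3 CPM in DKO libraries 1 to 5, against 13.3, 7.17, 8.42, 5.10 and 5.19 CPM in WT libraries 1 to 5. The groups did not overlap, and the highest WT library was WT 1. H2-Q7 had the largest fold change of the 10 genes, on means of 22.2 ± 4.82 CPM in DKO and 7.84 ± 3.36 CPM in WT microglia (SD, n = 5 each), with a log2 fold change of 1.50 (SE 0.27, 95% interval 0.92 to 2.08, edgeR adjusted p = 0.00773). Of the 150-base stretches of its transcripts, 5.90% also occurred in H2-Q10, H2-Q6 or H2-Q5, so its reads are in part uncertain. The counts of 8 H2-Q genes, summed with H2-Q3 included, gave a log2 fold change of 1.35 (SE 0.26, edgeR adjusted p = 0.0115), with 43.1 to 75.6 CPM in DKO and 14.3 to 35.7 CPM in WT libraries.

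H2-T23, at chr17:36029773-36032855 on the minus strand, encodes Qa-1, which presents leader peptides of other class I molecules to natural killer cell receptors. Its CPM were 433, 389, 405, 444 and 447 in DKO libraries 1 to 5, against 329, 342, 326, 359 and 333 in WT libraries 1 to 5. The groups did not overlap, and H2-T23 had the smallest change among the 4 genes that rose. It averaged 424 ± 25.6 CPM in DKO and 338 ± 13.2 CPM in WT microglia (SD, n = 5 each), a log2 fold change of 0.33 (SE 0.07, 95% interval 0.17 to 0.48, edgeR adjusted p = 0.0223). This call was lost with upper-quartile factors, with no count filter (adjusted p = 0.0588), on log2(TPM + 1) without Gm23935 (limma adjusted p = 0.0517), in smaller sets of libraries and when DKO 1, DKO 5, WT 1 or WT 5 was left out, with an adjusted p of 0.0282 to 0.0611 over the libraries left out in turn. On the log2(TPM + 1) scale the estimate was -0.04, where the median of all genes was itself -0.26, so that H2-T23 stood 0.22 above that median. The annotated gene A930015D03Rik covers H2-T23 on the other strand, and the library kit does not keep strand.

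H2-M3, at chr17:37270220-37274484 on the plus strand, presents peptides that start with formyl-methionine, as made by bacteria and mitochondria. Its CPM were 109.5, 101, 130.1, 130.0 and 131 in DKO libraries 1 to 5, against 109, 80.7, 84.1, 95.2 and 92.3 in WT libraries 1 to 5. The groups overlapped through WT 1, which was above DKO 2. The log2 fold change was 0.38 (SE 0.11, 95% interval 0.14 to 0.62, edgeR adjusted p = 0.0635). H2-M3 passed the threshold in 5 of 29 alternative settings. These included leaving out WT 1 (0.45, edgeR adjusted p = 0.0471) and the use of DESeq2 (0.37, DESeq2 adjusted p = 0.0499).

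Across the 10 genes, 4 had every DKO library above every WT library, the same 4 that passed the test, and 4.33% of all genes tested had such a separation. The plot of CPM by library shows these 4 genes beside those whose genotypes overlapped.

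**Figure D1:**
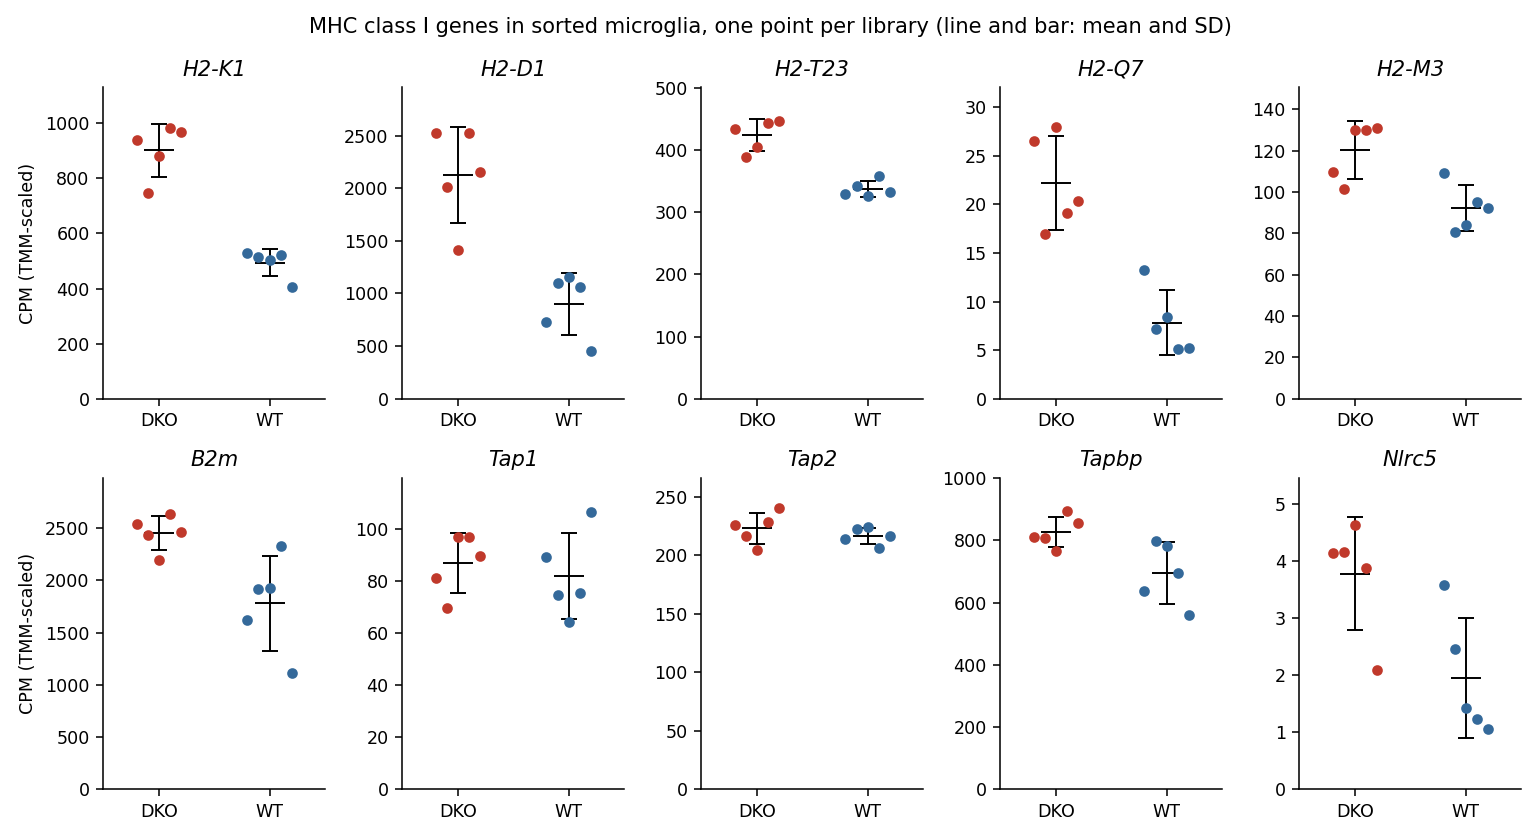
Each panel plots the TMM-scaled CPM of 1 class I gene, with 5 DKO libraries on the left in red and 5 WT libraries on the right in blue, in the order of their replicate numbers within each group. The horizontal line is the mean and the bar is the SD, and every axis starts at 0. H2-K1, H2-D1, H2-T23 and H2-Q7 do not overlap between genotypes, whereas Tap1 and Tap2 do.

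B2m encodes the light chain shared by all these heavy chains and lies at chr2:122147686-122153083 on the plus strand, away from the H2 region. It had 2541, 2432, 2195, 2634 and 2460.3 CPM in DKO libraries 1 to 5, against 1617, 1913, 1932, 2324 and 1109.6 CPM in WT libraries 1 to 5. WT 4 lay above DKO 3, and WT 5 and WT 1 were again the lowest of their genotype. The means were 2452 ± 164 CPM in DKO and 1779 ± 451 CPM in WT microglia (SD, n = 5 each), with a log2 fold change of 0.46 (SE 0.16, 95% interval 0.11 to 0.82) that did not pass the threshold (edgeR adjusted p = 0.115). Without WT 1 and WT 5 it was 0.25 (adjusted p = 0.233). The spread of B2m between libraries was wider in WT microglia, with a coefficient of variation of 6.68% in DKO and 25.3% in WT libraries. Patl2, which overlaps B2m on the other strand, had 0.316 CPM in DKO and 0.659 CPM in WT libraries on average.

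The peptide transporter and tapasin did not pass the test. Tap1, at chr17:34187553-34197225 on the plus strand, had 81.0, 69.7, 96.8, 97.0 and 89.3 CPM in DKO libraries 1 to 5, against 89.2, 74.4, 64.1, 75.2 and 107 CPM in WT libraries 1 to 5. Its genotypes overlapped fully, with both the lowest and the highest value in WT libraries, and the log2 fold change was 0.08 (SE 0.14, 95% interval -0.23 to 0.40, edgeR adjusted p = 0.762). Tap1 overlaps Psmb9 by 212 bases on the other strand.

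Tap2, at chr17:34203527-34216321 on the plus strand, had 226, 217, 204, 228 and 240.3 CPM in DKO libraries 1 to 5, against 214, 222, 224, 206 and 216 CPM in WT libraries 1 to 5. It varied least of the 10 genes between WT libraries, with a coefficient of variation of 6.01% in DKO and 3.35% in WT. Its log2 fold change was 0.04 (SE 0.07, 95% interval -0.11 to 0.20, edgeR adjusted p = 0.754). This interval lies below those of H2-K1, H2-D1 and H2-Q7 but overlaps that of H2-T23 (0.17 to 0.48). On the log2(TPM + 1) scale Tap2 fell by 0.31 (limma adjusted p = 0.0216), a value of -0.05 relative to the median of all genes there. The annotated genes Gm20496 and Gm15821 overlap Tap2 on the other strand.

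Tapbp, at chr17:33915899-33929292 on the plus strand, had 812, 807, 767, 893 and 854 CPM in DKO libraries 1 to 5, against 638, 798, 784, 695 and 561 CPM in WT libraries 1 to 5. Of the WT libraries, WT 2 and WT 3 lay above DKO 3, and WT 5 was the lowest. The log2 fold change was 0.25 (SE 0.10, 95% interval 0.02 to 0.48, edgeR adjusted p = 0.175).

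Nlrc5, at chr8:94434356-94527272 on the plus strand, was the least abundant of the 10 genes, with 49 to 108 estimated counts in DKO and 28 to 99 in WT libraries. It had 4.14, 4.15, 4.63, 3.87 and 2.08 CPM in DKO libraries 1 to 5, against 3.57, 2.46, 1.42, 1.23 and 1.05 CPM in WT libraries 1 to 5. DKO 5 lay among the WT libraries and WT 1 close to the other DKO libraries. Its log2 fold change of 0.95 (SE 0.35, 95% interval 0.18 to 1.72) did not pass the threshold (edgeR adjusted p = 0.132). It passed in 2 of 29 alternative settings, without WT 1 (1.29, adjusted p = 0.0471) and with the set term described below (1.01, adjusted p = 0.0462).

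**Figure D2:**
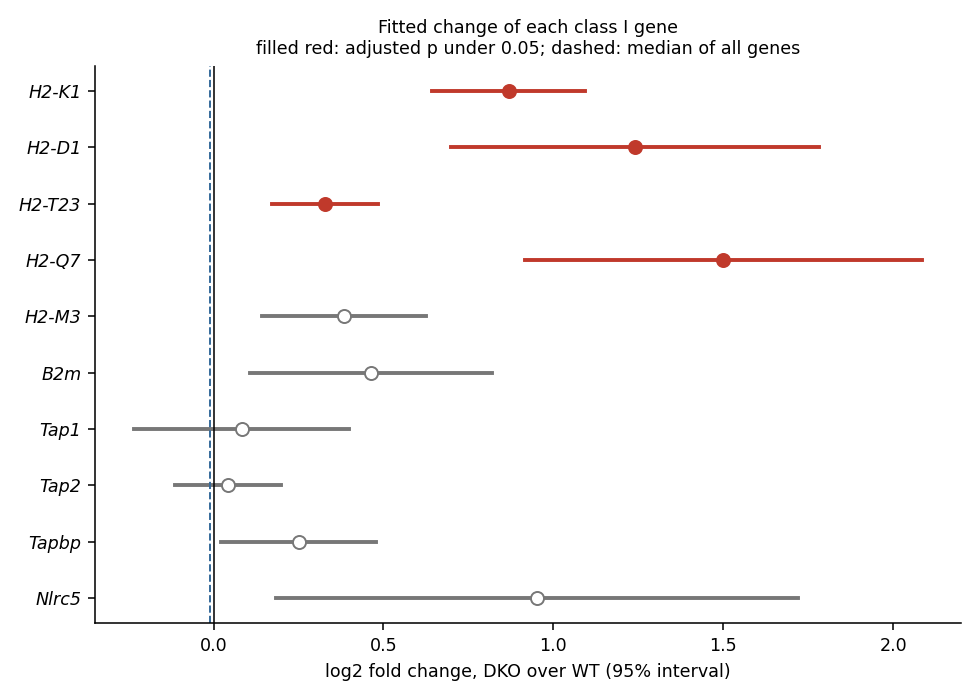
The log2 fold change (DKO over WT) of each class I gene from edgeR is plotted as a point with its 95% interval, filled red where the adjusted p was under 0.05, and the dashed line is the median of all 13916 genes tested. The intervals of the 4 filled genes lie above 0, with the highest estimate at 1.50 for H2-Q7, while those of Tap1 and Tap2 include 0.

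Because scaling between libraries could shift all genes at once, counts were also compared within each library as ratios, which need no scaling. The ratio of H2-K1 to Tap2 counts was 3.44 to 4.31 in DKO libraries and 1.88 to 2.52 in WT libraries, and that of H2-D1 to Tap2 was 6.92 to 11.2 in DKO and 2.11 to 5.15 in WT libraries. The ratio of H2-T23 to Tap2 was 1.80 to 1.98 in DKO and 1.45 to 1.74 in WT libraries. In none of these 3 ratios did the genotypes overlap, so each of these heavy chains differed between genotypes relative to Tap2. Tap2 had the smallest change of the 10 genes in the same data, so these ratios largely repeat the comparison of CPM. Ratios to Tap1 or Tapbp were not examined. H2-D1 per B2m was 0.644 to 0.993 in DKO and 0.412 to 0.596 in WT libraries, again without overlap. H2-K1 per B2m (0.307 to 0.401 in DKO, 0.224 to 0.366 in WT), B2m per Tap2 (10.24 to 11.5 in DKO, 5.13 to 11.3 in WT) and H2-D1 per H2-K1 (1.60 to 2.70 in DKO, 1.13 to 2.29 in WT) overlapped.

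**Figure D3:**
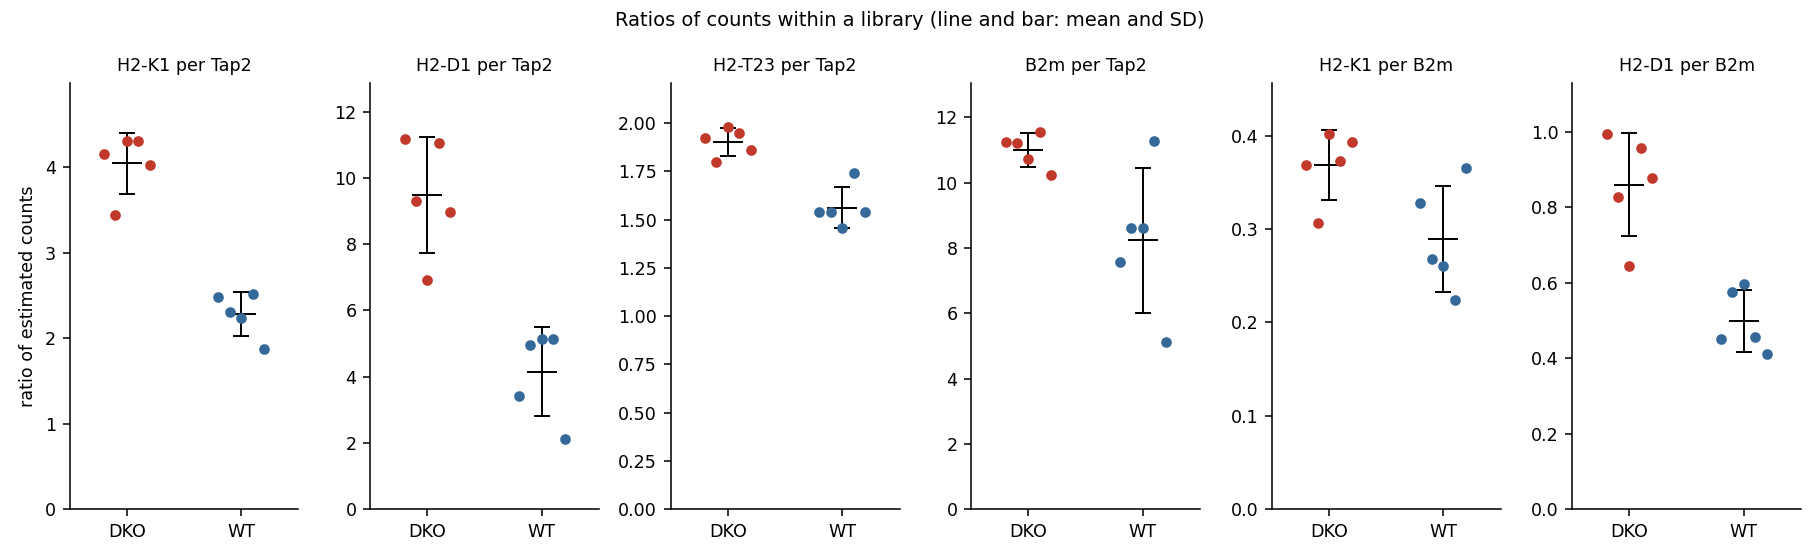
Each panel plots the ratio of the estimated counts of a pair of class I genes within each library, with DKO on the left in red and WT on the right in blue, and with the mean and SD as a line and bar. H2-K1, H2-D1 and H2-T23 per Tap2 and H2-D1 per B2m separate the genotypes, and B2m per Tap2 and H2-K1 per B2m do not.

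The 5 heavy chain genes together made up 2858 to 4098 CPM in DKO and 1293 to 2073 CPM in WT libraries, while Tap1, Tap2 and Tapbp together made up 1068 to 1219 CPM in DKO and 884 to 1095 CPM in WT libraries. Within the heavy chain total, H2-K1 and H2-D1 had a share of 80.3 to 85.9% in DKO and 66.7 to 79.8% in WT libraries, so that the 2 classical genes took a larger share in every DKO library. Counting 28 heavy chain genes of the H2 region as 1 quantity, with H2-Q3 added to those of the lists, gave a log2 fold change of 0.96 (SE 0.14, edgeR adjusted p = 0.00273).

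Levels between genes were compared as TPM, which divides by transcript length, computed without Gm23935, a gene that took 23.2 to 26.6% of TPM in DKO libraries, 20.3% in WT 3 and 2.85 to 6.60% in the other WT libraries. By mean TPM the order was the same in both genotypes: B2m, H2-D1, H2-K1, Tapbp, H2-T23, Tap2, H2-M3, Tap1, H2-Q7 and Nlrc5. B2m averaged 4025 TPM in DKO and 3061 TPM in WT microglia, H2-D1 1874 TPM in DKO and 842 TPM in WT, and H2-K1 1029 TPM in DKO and 587 TPM in WT. In DKO libraries the ranges of neighbours in this order overlapped for Tap2 and H2-M3. In WT libraries they overlapped for H2-D1 and H2-K1 and for H2-K1 and Tapbp. Thus H2-K1 stood apart from Tapbp in DKO libraries and not in WT libraries, a contrast that was not tested as such. The length assigned to Nlrc5 ranged from 1490.5 to 5060.4 bases in DKO and from 3088 to 5046 bases in WT libraries, which makes its TPM less certain than its counts.

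Of 22 further heavy chain genes of the H2 region in the tables, 7 had enough reads for a test, and 9 were at 0 in every library. Only H2-Q6 passed, as higher, with 22.2 to 42.1 CPM in DKO and 4.82 to 16.3 CPM in WT libraries and a log2 fold change of 1.59 (SE 0.32, edgeR adjusted p = 0.0162). Its transcripts share 5.99% of their 150-base stretches with H2-Q7, from which it is partly indistinguishable. H2-T22, which binds gamma delta T cell receptors, averaged 29.8 ± 3.21 CPM in DKO and 26.4 ± 4.66 CPM in WT microglia (SD, n = 5 each), and H2-T24 20.3 ± 2.64 CPM in DKO and 19.6 ± 2.24 CPM in WT. H2-Q4, H2-Q5, H2-T10 and H2-Q10 averaged under 3 CPM in both genotypes and had log2 fold changes of 0.39, 0.39, 0.97 and -0.87, none past the threshold. The median of the 7 was 0.39, and 4.34% of all genes tested were called higher.

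Among 6 class I-like genes outside the H2 region, 2 fell and none rose, while 1.85% of all genes tested were called lower and 4.34% higher. Hfe, a regulator of iron uptake that pairs with beta-2-microglobulin, averaged 287 ± 53.2 CPM in DKO and 414 ± 43.6 CPM in WT microglia (SD, n = 5 each), with a log2 fold change of -0.53 (SE 0.13, edgeR adjusted p = 0.0348), and passed in 20 of 29 alternative settings with an adjusted p of up to 0.238. Procr, the endothelial protein C receptor, averaged 2.06 ± 0.338 CPM in DKO and 4.68 ± 1.58 CPM in WT (SD, n = 5 each), a log2 fold change of -1.18 (SE 0.24, edgeR adjusted p = 0.0164). Their median of -0.29 was below that of all genes.

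The steps before and around peptide loading held no gene past the threshold, which 6.19% of all genes tested passed. None of 8 chaperone and trimming genes, 5 genes of the immunoproteasome and its PA28 activator, or 3 constitutive proteasome counterparts was called in either direction, with median log2 fold changes of -0.02, 0.12 and -0.01. Pdia3, the oxidoreductase bound to tapasin, averaged 2029 ± 239 CPM in DKO and 2047 ± 328 CPM in WT microglia, and the chaperone Canx 1122 ± 51.2 CPM in DKO and 1119 ± 131 CPM in WT (SD, n = 5 each). Psmb8, a catalytic subunit of the immunoproteasome, averaged 315 ± 21.9 CPM in DKO and 291 ± 45.5 CPM in WT, and the PA28 subunit Psme2 averaged 122 ± 17.7 CPM in DKO and 112 ± 20.4 CPM in WT. None of 12 further neighbours of Tap and Tapbp in the H2 region passed either, with a median of 0.15.

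Among 17 transcription factors and cofactors known at class I promoters, 1 rose and 1 fell, while 4.34% of all genes tested were called higher and 1.85% lower. Nfkb1, the p105 and p50 subunit of NF-kB, averaged 138 ± 16.0 CPM in DKO and 197 ± 15.3 CPM in WT (SD, n = 5 each), a log2 fold change of -0.51 (SE 0.10, edgeR adjusted p = 0.0116). The median of the 17 was 0.08.

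Of 26 interferon response genes, 6 rose and none fell, with a median log2 fold change of 0.45. Over all genes tested, 4.34% were called higher and 1.85% lower. Those with the smallest p were Ifitm3, which blocks viral entry (log2 fold change 1.19, SE 0.18, edgeR adjusted p = 0.00273), Ifi27l2a (1.20, SE 0.20, adjusted p = 0.00530), Irf7, a transcription factor for type I interferon genes (0.98, SE 0.17, adjusted p = 0.00565), and Oas1a, an antiviral synthetase (0.89, SE 0.16, adjusted p = 0.00952). Among them Ifitm3 had 24.1 to 32.9 CPM in DKO and 7.60 to 15.2 CPM in WT libraries. Of 8 interferon receptor, kinase and inhibitor genes, Ifnar2, a chain of the type I interferon receptor, passed as higher, with 548 ± 25.6 CPM in DKO and 401 ± 64.1 CPM in WT microglia (SD, n = 5 each) and a log2 fold change of 0.45 (SE 0.11, edgeR adjusted p = 0.0333). It passed in 14 of 29 alternative settings, with estimates from 0.19 to 0.54.

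Class II presentation, which serves CD4 T cells, was compared beside class I, in cells sorted as negative for MHC class II. Of 9 class II genes tested, 2 rose and none fell, with a median log2 fold change of 0.45, while 4.34% of all genes tested were called higher. H2-Ab1, a class II beta chain, had 29.6 to 48.9 CPM in DKO and 13.1 to 23.3 CPM in WT libraries, with a log2 fold change of 1.21 (SE 0.18, edgeR adjusted p = 0.00248). H2-DMb2, part of the class II peptide exchanger, averaged 16.8 ± 1.40 CPM in DKO and 10.39 ± 1.60 CPM in WT (SD, n = 5 each), a log2 fold change of 0.69 (SE 0.13, edgeR adjusted p = 0.00961).

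**Figure D4:**
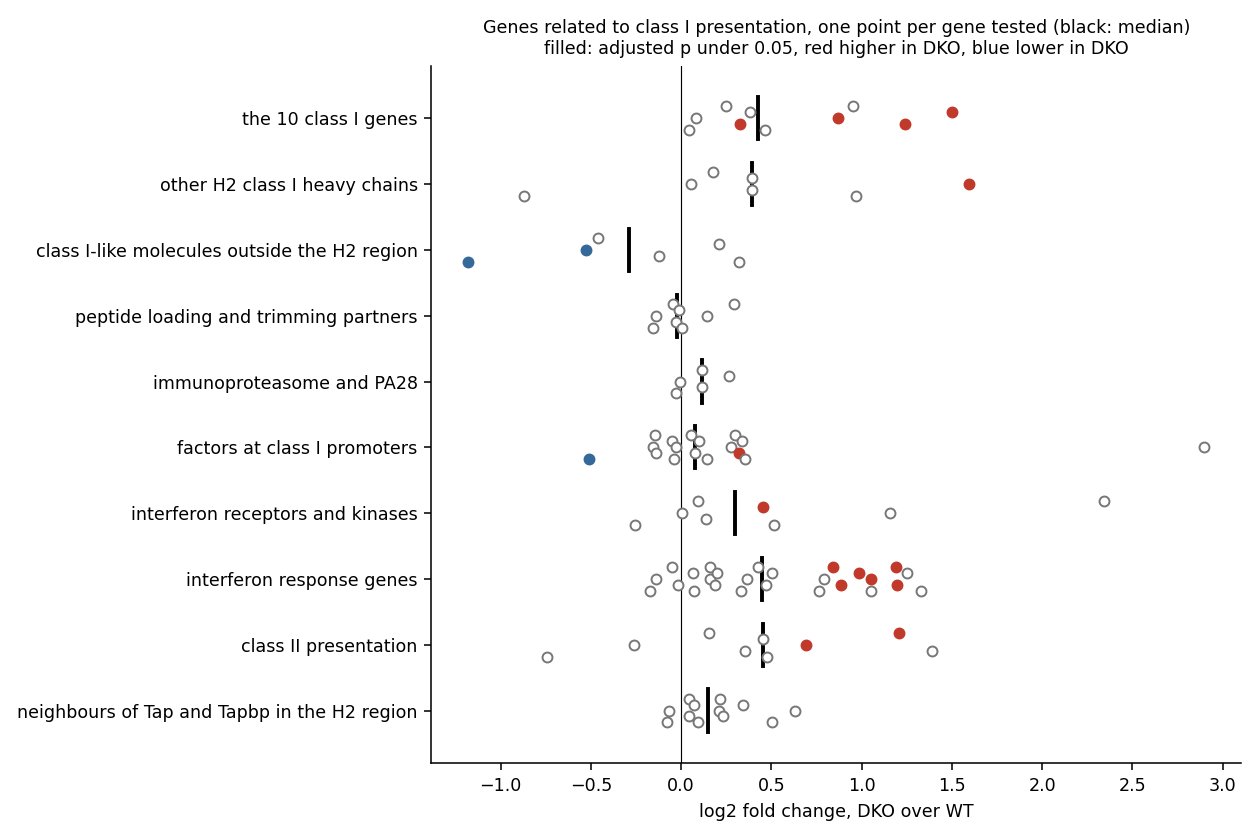
Each row plots the log2 fold changes (DKO over WT) of the genes tested in 1 list, with red points higher and blue points lower in DKO at an adjusted p under 0.05, open points not past it, and a black bar at the list's median. The medians are 0.42 for the 10 class I genes, 0.45 for interferon response genes and -0.02 for loading and trimming partners.

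The 5 genes whose pattern across the 10 libraries was most like the mean of the standardised log2 CPM of the 10 class I genes, among 7747 well-expressed genes outside the lists, were Fcgr4 (Pearson's r = 0.968), Sema4a (0.965), Pmp22 (0.962), Asns (0.958) and Ctsl (0.958). The libraries share their genotype as well as these levels, so r describes this set of 10 libraries. Without DKO 4 and WT 5, the libraries farthest from the median, r was 0.958, 0.987, 0.952, 0.963 and 0.924. Fcgr4, an activating Fc receptor, averaged 42.2 CPM in DKO and 19.5 CPM in WT microglia, and Asns, asparagine synthetase, 58.2 CPM in DKO and 2.88 CPM in WT.

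Total estimated counts were 22483284 to 26109349 per library. Bhlhe40 averaged 0.177 ± 0.136 CPM in DKO and 0.601 ± 0.385 CPM in WT microglia (SD, n = 5 each, two-sided exact permutation p = 0.0476). Bhlhe41 had 50.9 ± 8.46 CPM in DKO and 35.9 ± 6.67 CPM in WT (SD, n = 5 each, two-sided exact permutation p = 0.0238), with an assigned transcript length of 2209 ± 362 bases in DKO and 5998 ± 96.4 bases in WT libraries. Bhlhe40 had only 1 to 8 counts in DKO and 4 to 28 in WT libraries, which overlapped, and too few reads to be tested by edgeR. The tables do not give the deleted part of either gene. Counts alone thus check the labels only weakly for Bhlhe40 and do not check them for Bhlhe41. The 10 microglial markers summed to 77804 to 93980 CPM in DKO and 82707 to 91602 CPM in WT libraries, and of them P2ry12 fell (log2 fold change -0.50, edgeR adjusted p = 0.0301). Summed endothelial markers were at 6.29 to 13.3 CPM in DKO and 5.68 to 11.96 CPM in WT, monocyte markers at 4.97 to 7.21 CPM in DKO and 3.28 to 6.43 CPM in WT, dendritic cell markers at 2.23 to 4.36 CPM in DKO and 2.29 to 3.04 CPM in WT, and T and NK cell markers at 0.978 to 1.87 CPM in DKO and 0.576 to 1.81 CPM in WT. B cell markers summed to 526 to 886 CPM in DKO and 418 to 677 CPM in WT libraries through Ighm and Cd79b, with Pax5 at 0 in all. Markers of border-associated macrophages summed to 7.04 to 27.5 CPM in DKO and 5.18 to 15.8 CPM in WT libraries, with Pf4 higher in DKO (2.10 to 6.21 CPM against 0 to 0.376 CPM in WT) and Cd163 and Lyve1 at 0 in all. The part of these cells in the class I values was not tested.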

How the data were processed

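RNA of microglia sorted from female mice was sequenced as 5 DKO and 5 WT unstranded libraries with paired-end reads. Per the labels, the authors used cutadapt 2.6 for trimming, FastQC 0.11.8 for quality control and STAR 2.5.3a for alignment (build mm10). Which tool assigned reads to genes is not stated in the labels or methods. Per the file headers, each deposited table holds for every gene an estimated count without normalization, a TPM that sums to the same total in each library, and 2 lengths in bases, of which the effective one allows for fragment size. The sort kept live CD45.2+ CD11b+ cells negative for Ly6C, Ly6G, MHCII and CD38.

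After rounding of the estimated counts, the filter filterByExpr (minimum count 10) and TMM factors, DKO was set against WT by edgeR 4.0.16 (glmQLFTest after glmQLFit) in R 4.3.3, with p-values adjusted by Benjamini and Hochberg over all 13916 genes and a threshold of 0.05. The script was tested on simulated data. Bhlhe40 and Bhlhe41 were compared with exact permutation tests, whose smallest p for 5 against 5 libraries is 0.00794. Total counts of 22483284 to 26109349 per library leave at least 28 counts for every one of the 10 genes, and the spread between libraries sets the precision. Gene positions are those of GENCODE M21 (GRCm38), and of 53697 gene IDs 52806 were found there with the same version. Promoters were from RefSeq, with 8 of the 10 genes matched.

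The 10 genes and all lists were chosen with earlier results of these data known, so no count of theirs is independent support. The text names the 10 genes, the targeted genes, other heavy chains that were tested, the called genes of a list, at most 4 by smallest p (where none was called, the 2 of highest mean CPM), the 5 genes most alike in pattern, and marker genes where a marker list was described. Alternatives were RLE, upper-quartile and no factors, robust edgeR, DESeq2 1.42.0, limma 3.58.1 (voom with and without quality weights, log2 TPM with 1 or 0.1 added, and without Gm23935), other filters, effective length as an offset, the H2-Q genes summed, a replicate block, a set term, and fewer libraries. The set term separates libraries numbered 1 to 3 from those numbered 4 and 5, since the accessions list them in that order. A list's count includes every gene tested in it, also genes that are not reported here by name.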

Additional observations from a re-analysis of the deposited data

Results flagged for a closer look

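With 28 sets of 5 libraries examined, 20 of them the CPM of a class I gene in 1 genotype, 3 held a library whose gap to the nearest other exceeded 0.71 of the set's range, and chance gives about 1 in 20. H2-K1 had 406 CPM in WT 5, against 503 to 530.2 CPM in the other WT libraries. The share of mitochondrial reads was 1.58% in DKO 3, against 1.04 to 1.13% in the other DKO libraries. Gm23935 took 20.3% of TPM in WT 3, against 2.85 to 6.60% in the other WT libraries. In DKO libraries it took 23.2 to 26.6%, so its share differed between the genotypes apart from WT 3. With WT 3 left out, 1618 genes were called among all tested, against 862 with all libraries. Leaving out another library instead gave 402 to 844. Whether what sets this share also bears on the counts was not tested. The paper states that RNA integrity was not assessed for the mouse samples, as little RNA was available.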

How the results depend on the processing

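H2-K1 passed the threshold in 28 of 29 alternatives, with log2 fold changes of 0.52 to 1.07. The call of H2-T23 depended most on the processing, and its estimate turned to -0.037 on both the log2(TPM + 1) and log2(TPM + 0.1) scales, while Tap2 was at -0.31 on log2(TPM + 1), where 1 of the 10 genes was then called lower. Over all genes the median was at -0.11 with upper-quartile factors, at -0.26 with log2(TPM + 1) and at -0.35 with log2(TPM + 0.1). The genes called higher numbered 6 with the set term and 5 with DESeq2, voom with quality weights and the replicate block as a random effect. They numbered 2 with the replicate block, where H2-D1 (1.29, adjusted p = 0.0537) and H2-T23 (0.33, adjusted p = 0.0588) no longer passed. In smaller sets a different gene was the only 1 called, H2-K1 in libraries 1 to 3 alone and H2-Q7 in libraries 4 and 5 alone. Fewer libraries were fitted there. The genes called higher numbered 3 to 5 when each library was left out in turn. Same-numbered libraries correlated at -0.29 to 0.23 in their deviations from the mean of their genotype. These values were set against no reference, so they cannot decide whether the numbers pair the samples. The genes called among all tested numbered 862, against 1629 with DESeq2, 4946 with log2(TPM + 1), 4489 with log2(TPM + 0.1), 547 with the replicate block, 1305 with the replicate block as a random effect, 1431 with the set term, 298 in libraries 1 to 3, 57 in libraries 4 and 5, 449 without WT 1 and WT 5, and 402 (without DKO 1) to 1618 (without WT 3) when each library was left out. Of the calls, 70.1% were higher with TMM, against 53.7% with library size alone, 54.6% with upper-quartile factors, 53.3% with log2(TPM + 1) without Gm23935, 59.8% with the set term, 11.97% with log2(TPM + 1) and 13.1% with log2(TPM + 0.1). The cause was not tested. Nlrc5 had the fewest counts of the 10 genes, at 28 to 108.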
